A study of Mus musculus with 24 samples.

Results

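The 43 genes described here encode scaffolds of the excitatory postsynapse, synaptic adhesion proteins, kinase subunits and glutamate receptor subunits. Some of these proteins act at other sites, such as the presynapse or inhibitory synapses, as given below. The genes were chosen by symbol. Each row of the deposited count matrix was taken whose Ensembl gene identifier, with its version removed, mapped to a named symbol. All 43 were found among the 53647 genes of the matrix, and all 43 passed the filter on low counts that left 21280 genes to test. They fall into 13 scaffolds (Dlg1 to Dlg4, Dlgap1 to Dlgap4, Shank1 to Shank3, Homer2 and Homer3), 9 adhesion and kinase genes (Nlgn1 to Nlgn3, Lrrtm1 to Lrrtm4, Camk2a and Camk2b) and 21 receptor subunits. The receptor subunits comprise 4 of AMPA receptors, 6 of NMDA receptors, 6 metabotropic receptors and 5 of kainate receptors.

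RNA came from the cortex of mice aged 7.5 months in 3 genotypes of 8 libraries each. All 3 groups carry the 5xFAD transgenes, human genes with familial Alzheimer's disease mutations driven by the Thy1 promoter, which is active in neurons, a model known for early amyloid deposition. The group called 5xFAD is marked WT in its titles, while the groups 5xFADM28L and 5xFADP522R, called M28L and P522R below, are marked homozygous for M28L or P522R, variants of Plcg2. Plcg2 encodes phospholipase C-gamma-2, a signalling enzyme that in brain is mainly found in microglia and not in neurons. In their titles, 4 libraries of each genotype carry the letter F and 4 the letter M. The animal numbers in the titles all differ, so each library was taken as 1 mouse, and p-values measure the spread between libraries. No label states litters, and mice without the 5xFAD transgenes are not analysed here.

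At an excitatory synapse, glutamate opens AMPA receptors for fast transmission, and NMDA receptors admit calcium when the membrane is already depolarised. Metabotropic glutamate receptors signal through G proteins on either side of the cleft, and kainate receptors modulate release and excitability. Beneath the membrane, PSD-95 and its relatives bind receptors and adhesion proteins, SAPAP proteins link these to Shank, and Homer joins Shank to metabotropic receptors. Calcium entering through NMDA receptors activates CaMKII, the kinase that is among the most abundant proteins of this structure. Loss of such synapses accompanies amyloid deposition.

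Total counts ran from 79230161 to 115154197 per library, and the lowest count of any of the 43 genes in any library was 501. Plcg2 was 1.04 higher on the log2 scale in P522R than in 5xFAD (SE 0.14, adjusted p = 5.6e-06) and did not differ detectably in M28L (-0.11, SE 0.14, adjusted p = 0.86). Bc1, a short noncoding RNA of neurons, took 3.61% to 10.4% of the counts in 5xFAD, 3.0% to 6.01% in M28L and 5.32% to 19.8% in P522R. It exceeded 10% in 4 P522R libraries (replicates 8, 24, 31 and 106), in 1 5xFAD library (replicate 1180) and in 0 M28L libraries. Fewer genes were detected per library in P522R (22958 to 26648) than in 5xFAD (27831 to 29012). The M28L library named replicate 28 was the lowest of its group for 26 of the 43 genes and the highest for 5. The excitatory neuron marker Slc17a7 was present in every library, at 570 to 2225 CPM. Since the tissue is bulk cortex, fewer cells of a type and less RNA per cell cannot be told apart. CPM here is the count scaled to a common library size adjusted by TMM, a scaling for RNA composition.

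Compared per length, as mean CPM per kilobase of exon over the 24 libraries, the 43 genes spanned more than 2 orders of magnitude. Camk2a, the alpha subunit of CaMKII, stood at 389 CPM per kb, followed by Camk2b at 97.4. Dlg4, which encodes PSD-95, was the highest scaffold at 73.1, above Dlgap3 at 57.5 and Dlgap4 at 35.2. Among receptor subunits the AMPA subunit Gria1 led at 61.0, followed by the obligatory NMDA subunit Grin1 at 56.4 and the kainate subunit Grik5 at 35.4. At the low end, Grin2d lay at 1.82, Grik1 at 1.57 and the metabotropic receptor Grm8 at 1.20. These orders compare genes within the same libraries and rest on the exon lengths given in the deposited matrix.

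Setting P522R against 5xFAD shows which genes differ between these groups, both of which carry the 5xFAD transgenes. Genotype and Bc1 share overlap in part, and the part of the variant itself in these differences was not tested. In P522R 8 of the 43 genes were higher and 18 were lower, while 17 did not pass an adjusted p of 0.05 in edgeR's quasi-likelihood test. Higher were the scaffolds Dlg4 and Dlgap4 and the receptor genes Grin1, Grin2d, Grm2, Grm4, Grik4 and Grik5, by 0.46 to 0.80 on the log2 scale. Lower were 6 scaffolds, 2 adhesion genes and 10 receptor genes, by 0.17 to 0.61. Members of a single family went opposite ways: Dlg4 rose while Dlg1 and Dlg2 fell, Grin1 rose while Grin2a fell, and Grik4 rose while Grik3 fell. Of all 21280 genes tested, 29.8% were called in this comparison, 15.0% higher and 14.8% lower, so calls were common in general.

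Scaffolds and receptor subunits both held genes of either direction. Of 13 scaffolds 2 rose and 6 fell, with a median difference of -0.17. Of 21 receptor subunits 6 rose and 10 fell, with a median of -0.20, and of the 9 adhesion and kinase genes 0 rose and 2 fell, with a median of -0.11. Over all genes tested the median was -0.04. The difference between these classes was not tested, because the list was put together with results of these data known. Sums over a class can hide opposite moves of its genes. Receptor subunits together reached 2541 ± 285 CPM in 5xFAD, 2579 ± 288 in M28L and 2642 ± 200 in P522R (SD, n = 8). Scaffolds reached 3021 ± 352, 3108 ± 461 and 3222 ± 304 CPM, and adhesion and kinase genes 4214 ± 691, 4345 ± 913 and 4356 ± 339. By receptor family, sums in 5xFAD and P522R were 1056 ± 129 and 876 ± 150 CPM for AMPA and 923 ± 115 and 1144 ± 144 for NMDA receptors. For metabotropic receptors they were 261 ± 37.3 and 253 ± 41.8 CPM, and for kainate receptors 301 ± 41.9 and 369 ± 62.5. All 26 called genes kept their sign under each of 16 alternative analyses and each of 24 fits with 1 library left out. Their calls held less well, since adding the log2 Bc1 share to the model left 3 of 26 and leaving out the 5 libraries with over 10% Bc1 left 9. A block for the title prefix, whose meaning the labels do not give, left 4 (Grik4, Grm4, Grin3a and Shank3), beside 4.40% of all genes. Many prefixes occur in only 1 library, which then adds nothing to that fit, so it rests on fewer libraries and can call less.

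**Figure D1:**
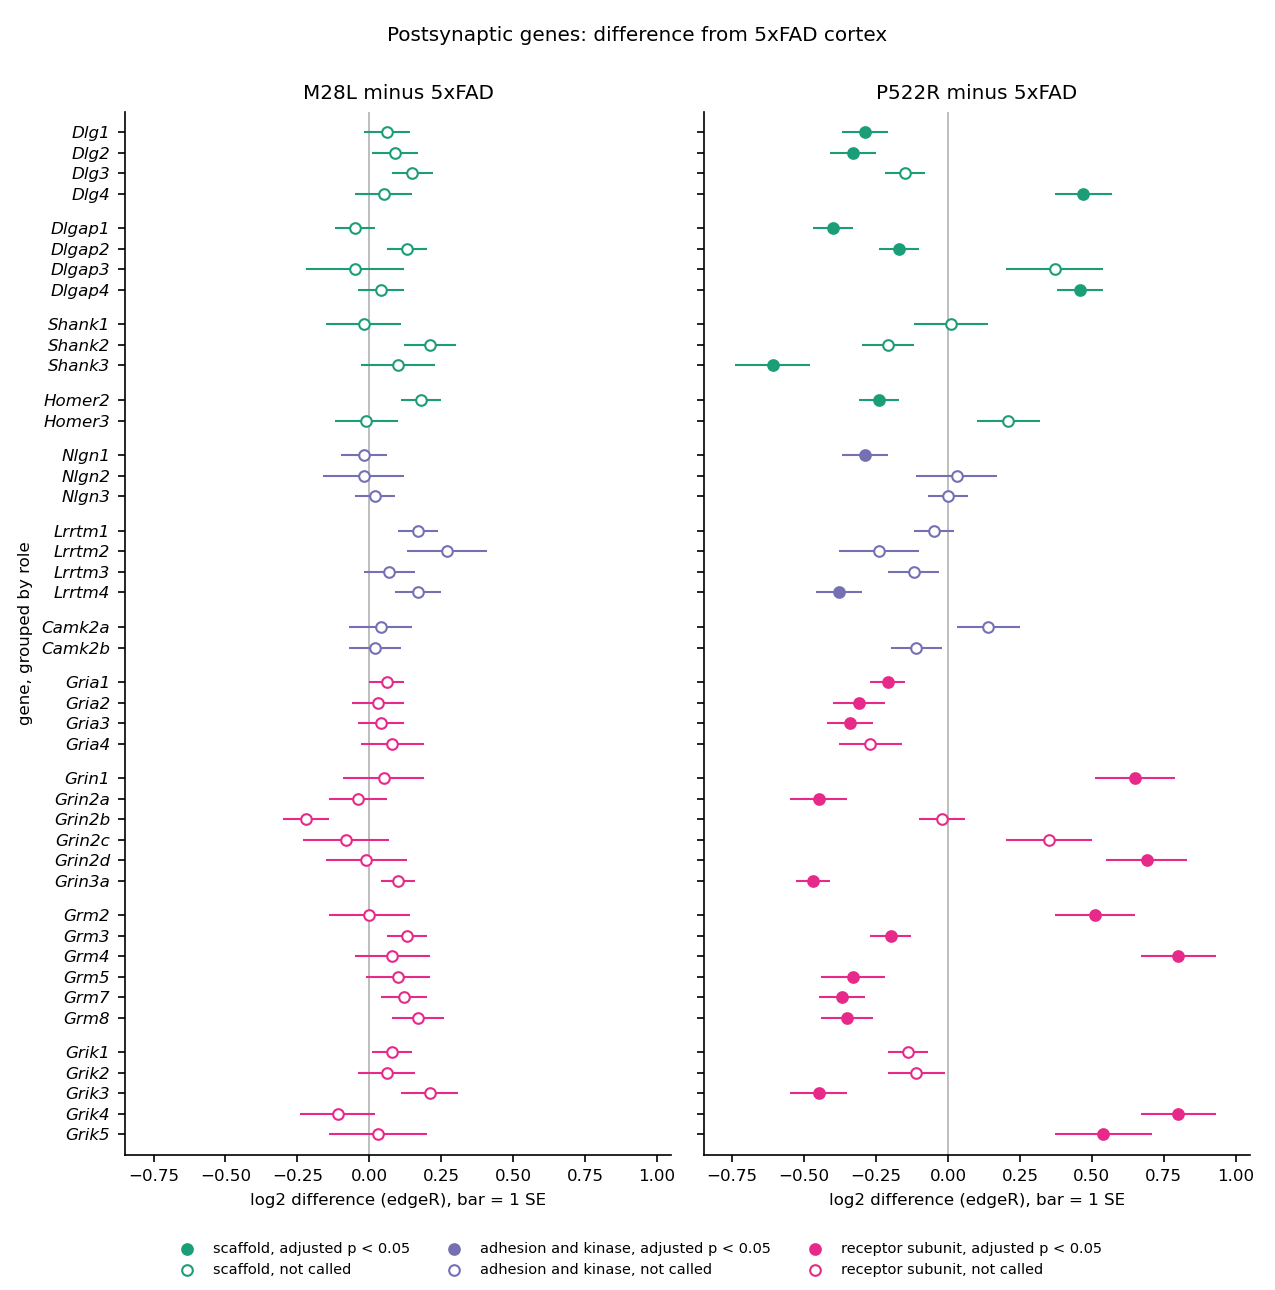
Log2 difference of each of the 43 genes from 5xFAD (x axis; bar, 1 SE), in M28L (left) and P522R (right), with genes grouped by role on the y axis and 8 libraries per genotype. Filled points passed an adjusted p of 0.05; all M28L points are open and lie between -0.22 and 0.27, while in P522R 8 filled points lie to the right of 0 and 18 to the left.

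Promoter sequence is shown for the genes with the largest higher and the largest lower difference in P522R among the scaffolds and among the receptor subunits, as far as the RefSeq promoter table (GRCm38.p6) holds them. The table matched 29 of the 43 genes with 44 promoters, each of 300 bases from 250 before to 50 after a transcription start. For Dlg4, which has 3 entries, the start farthest upstream is given. Capitals mark a GC box (GGGCGG), a CRE core (TGACG) or a TATA box (TATAAA) on either strand, none of which contains another.
Dlg4 (chr11:70016953-70017252, plus strand): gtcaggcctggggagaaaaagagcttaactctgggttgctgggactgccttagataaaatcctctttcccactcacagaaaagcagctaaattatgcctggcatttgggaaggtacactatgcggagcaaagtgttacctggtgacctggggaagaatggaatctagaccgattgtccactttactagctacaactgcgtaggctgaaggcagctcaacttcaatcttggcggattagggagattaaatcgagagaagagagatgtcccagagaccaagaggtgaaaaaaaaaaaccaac
Shank3 (chr15:89499358-89499657, plus strand): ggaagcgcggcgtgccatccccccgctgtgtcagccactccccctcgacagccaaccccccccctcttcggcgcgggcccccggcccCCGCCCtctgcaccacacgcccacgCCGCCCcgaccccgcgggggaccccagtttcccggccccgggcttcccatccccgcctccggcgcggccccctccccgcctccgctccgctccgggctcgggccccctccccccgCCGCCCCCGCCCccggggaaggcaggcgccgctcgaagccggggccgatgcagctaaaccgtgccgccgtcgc
Grik4 (chr9:42944322-42944621, minus strand): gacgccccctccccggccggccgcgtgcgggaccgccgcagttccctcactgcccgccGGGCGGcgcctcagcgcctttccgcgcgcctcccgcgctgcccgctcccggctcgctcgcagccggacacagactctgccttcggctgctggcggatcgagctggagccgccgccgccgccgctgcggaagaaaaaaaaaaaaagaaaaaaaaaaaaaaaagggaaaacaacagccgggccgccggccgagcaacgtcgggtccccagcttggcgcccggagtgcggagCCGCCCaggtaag
Grik3 (chr4:125490446-125490745, plus strand): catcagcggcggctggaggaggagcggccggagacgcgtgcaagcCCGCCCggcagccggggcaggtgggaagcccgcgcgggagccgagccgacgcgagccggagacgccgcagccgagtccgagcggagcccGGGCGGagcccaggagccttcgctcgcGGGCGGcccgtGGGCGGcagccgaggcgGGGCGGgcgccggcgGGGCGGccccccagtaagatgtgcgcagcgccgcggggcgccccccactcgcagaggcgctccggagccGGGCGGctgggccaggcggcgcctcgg
These runs read 5′ to 3′ on the strand of the gene. The Dlg4 run had a GC content of 46.3% and held none of these motifs, while Shank3, at 81.0% GC, held 4 GC boxes. Grik4 (70.0% GC) held 2 and Grik3 (82.0% GC) held 7, and neither held a CRE core or a TATA box. GC boxes occurred in 47.7% of the members' promoters against 35.7% of all 32851 promoters of this length, CRE cores in 15.9% against 20.8%, and TATA boxes in 9.09% against 13.6%. By call in P522R, median promoter GC content was 70.0% for the 7 matched genes that rose, 59.0% for the 12 that fell and 64.1% for the other 10. The lowest value among the genes that rose was 56%, above the 46.3% of the Dlg4 run. The value used there for Dlg4, which has 3 entries, is thus not that of the run shown. A match is a description of letters and not of a factor bound there.

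Among the membrane-associated guanylate kinase scaffolds, Dlg4 (ENSMUSG00000020886.18, chromosome 11, 69907768 to 69938348 in the deposited coordinates, whose build is not named) was the one that rose. Its lowest, median and highest values were 771, 804 and 1019 CPM for 5xFAD, 553, 930 and 985 for M28L, and 921, 1225 and 1413 for P522R. All 8 P522R libraries lay above the 5xFAD mean, although the ranges overlapped. The mean moved from 851 ± 93.2 to 1177 ± 176 CPM (SD, n = 8), a log2 difference of 0.47 (SE 0.10, adjusted p = 9.6e-04). Dlg1, which encodes SAP97, fell by 0.29 (SE 0.08, adjusted p = 0.010), and Dlg2, which encodes PSD-93, fell by 0.33 (SE 0.08, adjusted p = 0.0044). Dlg3, which encodes SAP102, lay at -0.15 (SE 0.07, adjusted p = 0.081). Measured per length, Dlg4 made up 53.1 ± 3.28% of the family's summed level in 5xFAD, 51.9 ± 4.45% in M28L and 64.8 ± 6.69% in P522R. The Dlg4 call did not hold without the libraries over 10% Bc1 (0.29, adjusted p = 0.11) or with the Bc1 term (0.44, adjusted p = 0.091), and held with GC and length offsets (0.37, adjusted p = 5.0e-06).

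The SAPAP scaffolds, encoded by the Dlgap genes, bind the guanylate kinase domain of PSD-95 and in turn Shank. Dlgap4 (ENSMUSG00000061689.16) was 1 of 3 genes of the 43 whose P522R and 5xFAD libraries did not overlap. The share of all genes without such overlap is not given here, while 29.8% of all genes were called. Dlgap4 was measured at 229, 254 and 305 CPM (lowest, median, highest) in 5xFAD, at 195, 286 and 299 CPM in M28L, and at 316, 352 and 411 CPM in P522R. The lowest P522R library thus stood above the highest library of either other genotype. Its log2 difference was 0.46 (SE 0.08, adjusted p = 1.4e-04), and it was still called with the Bc1 term (0.46, adjusted p = 0.023) and without the high-Bc1 libraries (0.32, adjusted p = 0.028). Dlgap1 fell by 0.40 (SE 0.07, adjusted p = 1.1e-04), with all 8 P522R libraries below the 5xFAD mean. Dlgap2 lay at -0.17 (SE 0.07, adjusted p = 0.048), a call lost in 19 of 24 fits with 1 library left out (adjusted p = 0.053 to 0.20) and kept without 5xFAD replicates 1180 or 1181, M28L replicate 28 or P522R replicates 27 or 54. Dlgap3, the SAPAP of highest level, ranged from 185 to 302 CPM in 5xFAD (median 232), from 96.9 to 288 CPM in M28L (median 249) and from 173 to 488 CPM in P522R (median 296), and was not called (0.37, SE 0.17, adjusted p = 0.11).

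Shank proteins form the deeper layer of the scaffold, and their genes diverged. Shank3 (ENSMUSG00000022623.18, chromosome 15, 89383826 to 89444464), known for its deletion in Phelan-McDermid syndrome, ran from 69.6 to 120 CPM in 5xFAD (median 90.6), from 48.1 to 134 CPM in M28L (median 105) and from 41.6 to 72.7 CPM in P522R (median 58.6). Shank3 fell by 0.61 (SE 0.13, adjusted p = 7.5e-04). Every P522R library was below the 5xFAD mean, and 2 of them, replicates 8 and 23 at 72.0 and 72.7 CPM, reached into the 5xFAD range. Shank2 lay at -0.21 (SE 0.09, adjusted p = 0.072). Shank1, the Shank gene of highest level, differed by 0.01 (SE 0.13, adjusted p = 0.96), with median CPM values of 256 (5xFAD), 275 (M28L) and 236 (P522R) and ranges of 190 to 329, 153 to 315 and 204 to 351 CPM. As a share of the summed Shank level per length, Shank3 held 21.3% to 22.8% in 5xFAD, 18.6% to 24.1% in M28L and 14.8% to 17.5% in P522R, so the P522R shares lay below every other library. Unlike most called genes, Shank3 lay farther from 0 with GC and length offsets (-0.77, adjusted p = 3.5e-09) and without the high-Bc1 libraries (-0.72, adjusted p = 0.0039). Its call did not hold with the Bc1 term (-0.48, adjusted p = 0.14). Among the Homer genes, Homer2 fell by 0.24 (SE 0.07, adjusted p = 0.011), from a median of 46.6 CPM (40.7 to 53.9) in 5xFAD, with 54.1 CPM (43.6 to 61.5) in M28L, to 38.5 CPM (33.6 to 47.6) in P522R, and Homer3 lay at 0.21 (SE 0.11, adjusted p = 0.14). Homer3 shares 58.5% of its exon bases with Ddx49 on the opposite strand, and whether counting used strand is not known here, so its value is uncertain.

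Of the 9 adhesion and kinase genes 2 were called in P522R against 5xFAD, both lower, beside 29.8% of all genes called and 14.8% lower. Neuroligins bind presynaptic neurexins: Nlgn1, of excitatory synapses, fell by 0.29 (SE 0.08, adjusted p = 0.0079), a call lost with GC and length offsets (-0.10, adjusted p = 0.12). Nlgn2, of inhibitory synapses, had median CPM values of 216 (5xFAD), 231 (M28L) and 221 (P522R), with ranges of 173 to 278, 96.5 to 271 and 152 to 274 CPM, and differed by 0.03 (SE 0.14, adjusted p = 0.90). Nlgn3 differed by 0.00 (SE 0.07), a value that is uncertain because Gm21986 on the same strand shares 41.2% of its exon bases. The LRRTM proteins also bind neurexins. Lrrtm4 ran from 24.1 to 32.4 CPM in 5xFAD (median 30.4), from 30.3 to 37.0 CPM in M28L (median 33.3) and from 16.2 to 31.1 CPM in P522R (median 22.1). It fell by 0.38 (SE 0.08, adjusted p = 5.7e-04), with 7 of 8 P522R libraries below the 5xFAD mean and the ranges overlapping; the antisense gene Gm4409, itself below the filter on low counts, covers 25.1% of its exons. Lrrtm1, the LRRTM gene of highest level per length, had median CPM values of 35.8 (28.7 to 42.2) for 5xFAD, 41.0 (32.7 to 47.6) for M28L and 33.4 (31.4 to 43.5) for P522R, which overlapped. Lrrtm1, Lrrtm2 and Lrrtm3 lay at -0.05, -0.24 and -0.12 and were not called. Camk2a, the gene of highest level, had median CPM values of 2904 (5xFAD), 3139 (M28L) and 3110 (P522R) (2153 to 3683, 1438 to 3419 and 2565 to 3290 CPM), a difference of 0.14 (SE 0.11, adjusted p = 0.39), and Camk2b lay at -0.11 (SE 0.09, adjusted p = 0.39).

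**Figure D2:**
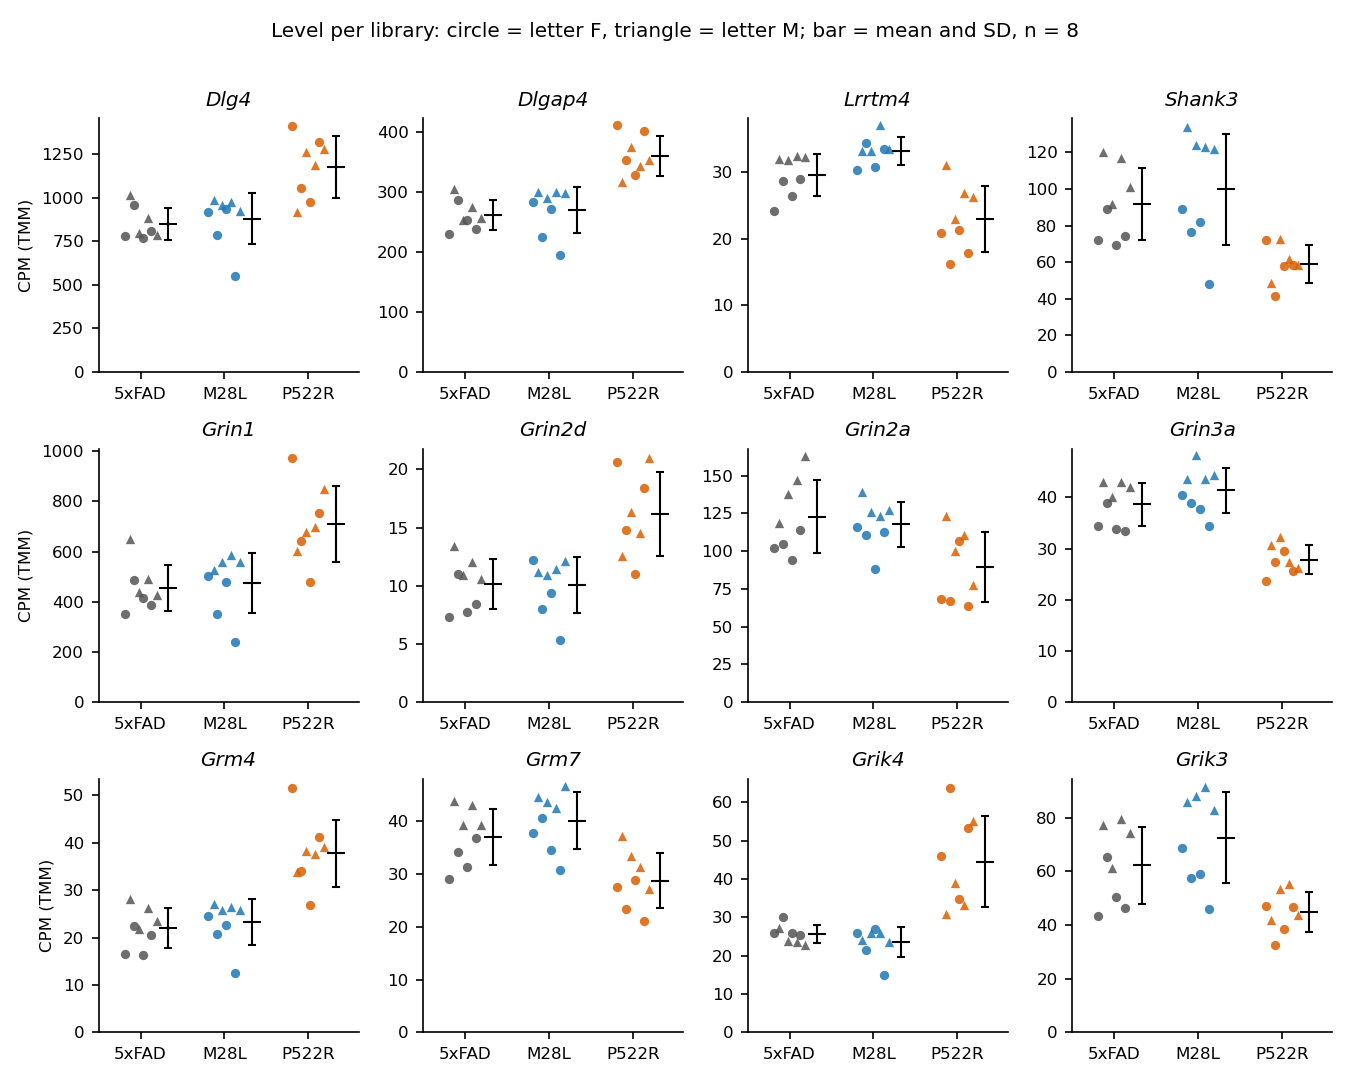
CPM of 12 genes (y axis, from 0) in each library by genotype (x axis); circles have the title letter F, triangles M, and the bar at the right of each group gives its mean and SD (n = 8). Dlgap4 and Grik4 in P522R lie wholly above 5xFAD and Grin3a wholly below, while the other genes overlap; the M28L library at the bottom of its group in Dlg4, Grm4 and Grik4 is replicate 28.

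All 4 AMPA receptor genes had lower values in P522R, and 3 of them passed. Gria1, which encodes the GluA1 subunit, ran from 343 to 433 CPM in 5xFAD (median 374), from 350 to 437 CPM in M28L (median 396) and from 275 to 372 CPM in P522R (median 326). All 8 P522R libraries were below the 5xFAD mean, and Gria1 fell by 0.21 (SE 0.06, adjusted p = 0.0061). Gria2, whose edited subunit limits calcium entry, fell by 0.31 (SE 0.09, adjusted p = 0.010), and Gria3 fell by 0.34 (SE 0.08, adjusted p = 0.0018). Gria4 lay at -0.27 (SE 0.11, adjusted p = 0.061). Since the 4 genes had similar differences, the make-up of the family hardly moved: Gria1 held 53.0 ± 3.85% of the summed level per length in 5xFAD, 53.5 ± 2.99% in M28L and 54.9 ± 4.48% in P522R. With GC and length offsets the differences of Gria1, Gria2 and Gria3 were -0.13, -0.12 and -0.17, and still passed (adjusted p = 0.015, 0.049 and 0.013). With the Bc1 term they were -0.11, -0.17 and -0.15, and none of the 3 passed (adjusted p = 0.45, 0.47 and 0.43).

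NMDA receptor genes split by subunit. Grin1 (ENSMUSG00000026959.14, chromosome 2, 25181193 to 25209199) encodes GluN1, which every NMDA receptor contains. It ran from 350 to 652 CPM in 5xFAD (median 435), from 241 to 586 CPM in M28L (median 514) and from 478 to 974 CPM in P522R (median 689). All 8 P522R libraries exceeded the 5xFAD mean of 457 ± 92.2 CPM, the ranges overlapped, and the log2 difference was 0.65 (SE 0.14, adjusted p = 0.0010). Grin1 shares 13.5% of its exon bases with Grin1os on the opposite strand. Grin2d, a GluN2 subunit of interneurons and early development, rose by 0.69 (SE 0.14, adjusted p = 6.6e-04), from 10.8 CPM at the median (7.33 to 13.4) in 5xFAD and 11.1 CPM (5.38 to 12.2) in M28L to 15.5 CPM (11.0 to 21.0) in P522R. The antisense gene Gm45441, at 6.63 CPM, covers 17.6% of the Grin2d exons, so part of that count could belong to it. Neither call held without the high-Bc1 libraries, where Grin1 and Grin2d both lay at 0.29 (adjusted p = 0.21 for each), or with the Bc1 term (0.53 and 0.61, adjusted p = 0.16 and 0.11).

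Falling NMDA subunits were Grin2a and Grin3a. Grin2a, the GluN2A subunit that replaces GluN2B as synapses mature, ran from 94.1 to 163 CPM in 5xFAD (median 116), from 88.3 to 139 CPM in M28L (median 120) and from 63.6 to 123 CPM in P522R (median 88.8), a fall of 0.45 (SE 0.10, adjusted p = 0.0014) with overlapping ranges. Its 4 lowest libraries of all 24, 63.6 to 77.6 CPM, were the 4 P522R libraries with over 10% Bc1, and the other 4 P522R libraries lay at 99.9 to 123 CPM; the part of Bc1 in this was not tested. Grin3a (ENSMUSG00000039579.16, chromosome 4, 49661611 to 49845744), whose GluN3A subunit lowers calcium entry and is best known from juvenile synapses, had the smallest adjusted p of the 43 genes. Its values were 33.4, 39.5 and 43.1 CPM (lowest, median, highest) in 5xFAD, 34.5, 41.9 and 48.3 CPM in M28L, and 23.7, 27.3 and 32.2 CPM in P522R. No P522R library reached the lowest library of another genotype, and the difference was -0.47 (SE 0.06, adjusted p = 4.4e-06). The Grin3a call held in all 16 alternatives, with the Bc1 term at -0.38 (adjusted p = 0.0076). Grin2b lay at -0.02 (SE 0.08, adjusted p = 0.89) and Grin2c at 0.35 (SE 0.15, adjusted p = 0.080). Per length, Grin2a held 9.09 ± 1.76% of the NMDA receptor total in 5xFAD, 8.96 ± 2.11% in M28L and 5.15 ± 1.98% in P522R, and Grin1 61.6 ± 3.44%, 63.7 ± 4.97% and 71.2 ± 3.86%.

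All 6 metabotropic receptor genes passed in P522R, 2 higher and 4 lower. Grm4 (ENSMUSG00000063239.18), a presynaptic receptor that lowers transmitter release, was measured at 16.4, 22.2 and 28.1 CPM (lowest, median, highest) in 5xFAD, at 12.5, 25.1 and 27.1 CPM in M28L, and at 26.8, 38.0 and 51.5 CPM in P522R. Only the lowest P522R library fell within the 5xFAD range, and Grm4 rose by 0.80 (SE 0.13, adjusted p = 3.5e-05), a call that held in all 16 alternatives, with the Bc1 term at 0.82 (adjusted p = 0.012). Grm2, another inhibitory autoreceptor, rose by 0.51 (SE 0.14, adjusted p = 0.0086), from 34.0 CPM at the median (24.9 to 45.9) in 5xFAD and 35.5 CPM (18.4 to 41.5) in M28L to 44.0 CPM (33.1 to 70.6) in P522R, and lay at 0.09 without the high-Bc1 libraries (adjusted p = 0.71). Grm7, a presynaptic receptor of low glutamate affinity, fell by 0.37 (SE 0.08, adjusted p = 5.6e-04), with 38.0 CPM at the median (29.0 to 43.7) in 5xFAD, 41.5 CPM (30.7 to 46.7) in M28L and 28.2 CPM (21.1 to 37.1) in P522R. Grm8, of the same group, fell by 0.35 (SE 0.09, adjusted p = 0.0025), from 11.8 CPM at the median (9.67 to 14.3) in 5xFAD, with 14.0 CPM (11.5 to 15.5) in M28L, to 8.74 CPM (6.65 to 12.7) in P522R. The ranges of all 4 of these genes overlapped between P522R and 5xFAD.

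The other metabotropic receptors couple in different ways. Grm5, the postsynaptic group I receptor that Homer tethers to Shank, lay at -0.33 (SE 0.11, adjusted p = 0.027), and its call was lost in 5 of 24 fits with 1 library left out, without P522R replicates 8, 24, 31 or 106 or 5xFAD replicate 1248 (adjusted p = 0.057 to 0.081). Grm3, a group II receptor shared by neurons and astrocytes, had medians of 41.9 CPM (36.4 to 51.7) in 5xFAD, 47.0 CPM (38.7 to 53.4) in M28L and 38.0 CPM (25.9 to 49.2) in P522R. Its difference was -0.20 (SE 0.07, adjusted p = 0.031), lost in 8 of 24 such fits (adjusted p = 0.053 to 0.11), those without 5xFAD replicates 1177, 1189, 1248 or 1269 or P522R replicates 23, 24, 31 or 106. Within the family, Grm4 rose from 8.46 ± 0.646% of the summed level per length in 5xFAD to 14.8 ± 2.83% in P522R, while Grm7 went from 14.6 ± 0.377% to 11.3 ± 1.32%.

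Kainate receptor genes also moved in both directions. Grik4 (ENSMUSG00000032017.15, chromosome 9, 42429431 to 42855789) encodes GluK4, a high-affinity subunit that needs a low-affinity partner. Its values were 22.9, 25.6 and 30.2 CPM (lowest, median, highest) in 5xFAD, 14.9, 25.0 and 27.0 CPM in M28L, and 30.8, 42.5 and 63.7 CPM in P522R, so that no P522R library overlapped the other genotypes. Grik4 rose by 0.80 (SE 0.13, adjusted p = 4.8e-05). Within P522R the 4 libraries with over 10% Bc1 lay at 46.1 to 63.7 CPM and the other 4 at 30.8 to 39.0 CPM. Without the high-Bc1 libraries Grik4 was still called at 0.43 (adjusted p = 0.025), and with the Bc1 term it was at 0.48 (adjusted p = 0.11). Grik5, which encodes the other high-affinity subunit GluK5, rose by 0.54 (SE 0.17, adjusted p = 0.015), from 151 CPM at the median (127 to 209) in 5xFAD and 174 CPM (72.2 to 204) in M28L to 221 CPM (135 to 328) in P522R, and lay at 0.11 without those libraries (adjusted p = 0.75).

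Of the low-affinity kainate subunits, Grik3 fell, by 0.45 (SE 0.10, adjusted p = 0.0013). It was measured at 43.5, 63.4 and 79.4 CPM (lowest, median, highest) in 5xFAD, at 45.9, 75.8 and 91.6 CPM in M28L, and at 32.7, 45.2 and 55.5 CPM in P522R, with all 8 P522R libraries below the 5xFAD mean. Like Shank3, it lay farther from 0 with GC and length offsets (-0.51, adjusted p = 8.7e-07) and without the high-Bc1 libraries (-0.55, adjusted p = 0.0035), and was not called with the Bc1 term (-0.29, adjusted p = 0.27). Grik1 and Grik2 lay at -0.14 and -0.11 and were not called. Grik3 went from 14.7 ± 1.99% of the summed kainate receptor level per length in 5xFAD to 8.45 ± 2.05% in P522R, and Grik4 from 9.32 ± 1.37% to 12.2 ± 2.39%.

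**Figure D3:**
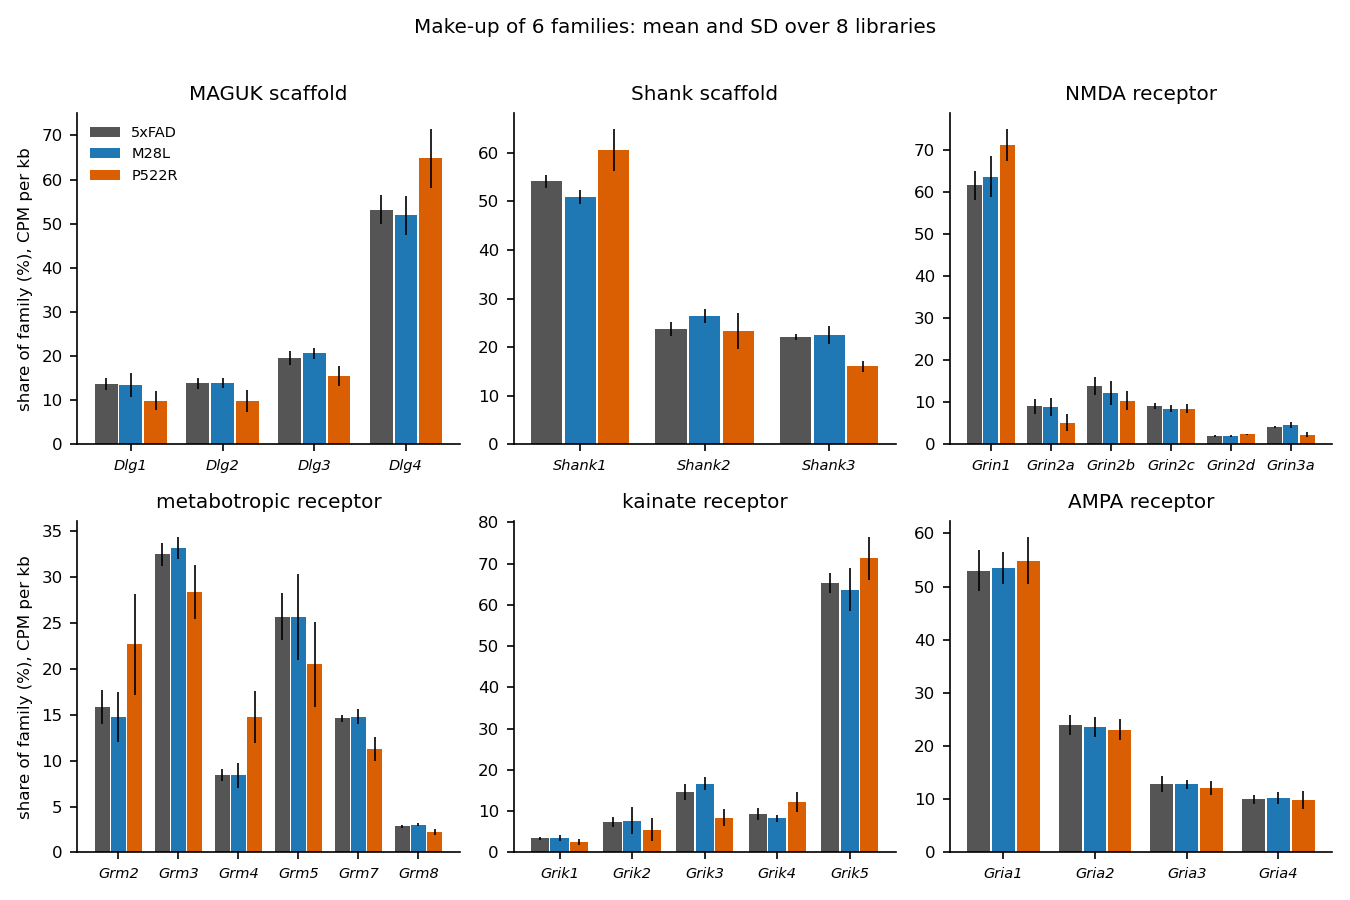
Share of each gene in its family's summed CPM per kb (y axis, percent, from 0) in the 3 genotypes, for 6 families; bars are means and lines SDs over 8 libraries. Dlg4, Grin1, Grm4 and Grik4 take larger shares in P522R, Shank3, Grin2a, Grin3a, Grm7 and Grik3 smaller ones, and the 4 AMPA receptor genes keep nearly the same shares.

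M28L was compared with the same 5xFAD libraries, which both comparisons against 5xFAD share. None of the 43 genes was called in M28L by edgeR, and none by DESeq2. An unadjusted p below 0.05 in edgeR was found for 7 of them, beside 2410 of all 21280 genes tested. Over all genes 1.21% were called in this comparison. The 7 genes were Dlg3 at 0.15, Shank2 at 0.21, Homer2 at 0.18, Lrrtm1 at 0.17, Lrrtm4 at 0.17, Grik3 at 0.21 and the NMDA subunit gene Grin2b at -0.22, with adjusted p from 0.26 (Grin2b) to 0.42 (Grik3). The limma-voom fit called 5 genes, Dlg3, Grik3, Lrrtm1 and Shank2 higher and Grin2b lower, beside 9.10% of all genes. Medians were 0.06 for scaffolds, 0.04 for adhesion and kinase genes and 0.06 for receptor subunits, against 0.01 over all genes. Standard errors ran from 0.06 to 0.17 on the log2 scale, which limits what this design could detect.

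The largest positive value in M28L was that of Lrrtm2, an adhesion protein that anchors AMPA receptors, at 0.27 (SE 0.14, adjusted p = 0.48). Lrrtm2 ran from 42.3 to 69.9 CPM in 5xFAD (median 47.6), from 44.7 to 77.9 CPM in M28L (median 63.4) and from 26.6 to 74.4 CPM in P522R (median 43.4). Those 3 ranges overlapped widely. Of the genes with the clearest differences in P522R, Dlg4, Dlgap4, Shank3, Grin3a, Grm4 and Grik4 lay in M28L at 0.05, 0.04, 0.10, 0.10, 0.08 and -0.11. Leaving out any 1 library, replicate 28 included, left 0 of the 43 genes called in M28L.

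P522R against M28L, a comparison of both variants, gave 9 genes higher and 24 lower. The background was 34.8% of all genes, 16.5% higher and 18.3% lower. Higher were the 8 genes that were also higher against 5xFAD and in addition Grin2c, the GluN2C subunit, at 0.43 (SE 0.15, adjusted p = 0.028). The Grin2c call was lost in 5 of 24 fits with 1 library left out, without M28L replicates 14 or 28 or P522R replicates 8, 31 or 106 (adjusted p = 0.055 to 0.067). Lower were 8 of 13 scaffolds, 4 of 9 adhesion and kinase genes and 12 of 21 receptor subunits, with class medians of -0.31, -0.20 and -0.27. All 4 AMPA receptor genes were lower here, Gria4 at -0.35 (SE 0.11, adjusted p = 0.013).

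Sizes in this comparison were greatest for Grik4 at 0.91 (SE 0.13, adjusted p = 8.4e-06), Grm4 at 0.72 (SE 0.13), Shank3 at -0.71 (SE 0.13, adjusted p = 1.3e-04) and Grin2d at 0.70 (SE 0.14). Grik3 lay at -0.66 (SE 0.10, adjusted p = 1.8e-05), Grin3a at -0.57 (SE 0.06, adjusted p = 3.1e-07) and Lrrtm4 at -0.55 (SE 0.08, adjusted p = 7.8e-06). Shank2 (-0.42), Dlg3 (-0.31), Lrrtm1 (-0.22), Lrrtm2 (-0.51), Gria4 and the kainate subunit gene Grik1 (-0.22) passed here and not against 5xFAD, and whether these differences differ was not tested. The Grik1 call was lost without P522R replicate 24 (adjusted p = 0.053). Dlgap4, Grin3a and Grik4 were again the genes whose libraries did not overlap. How many of all genes lacked overlap is not given here, while 34.8% of them were called. With the Bc1 term 0 of the 33 were called, as were 0.0940% of all genes.

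Genes that act beside these 43 were read from lists taken by function, beside 15.0% of all genes higher and 14.8% lower in P522R against 5xFAD. Of 20 AMPA and kainate receptor auxiliary subunits 5 rose and 4 fell in P522R against 5xFAD, with a median of -0.01. Cacng3, a TARP that carries AMPA receptors to the synapse, rose by 0.44 (SE 0.06, adjusted p = 7.0e-06), with mean levels of 113 ± 6.93 in 5xFAD and 154 ± 13.6 CPM (SD, n = 8), and Cpt1c and Shisa7 rose by 0.62 and 0.48. Frrs1l, needed for AMPA receptor assembly, fell by 0.44 (SE 0.10, adjusted p = 0.0017), with mean levels of 284 ± 40.2 in 5xFAD and 212 ± 63.6 CPM (SD, n = 8). Of 36 other postsynaptic density genes 10 rose and 7 fell, with a median of 0.02. Rph3a, which holds GluN2A at the membrane, rose by 0.59 (SE 0.09, adjusted p = 1.2e-05). Cask, a scaffold of both sides of the synapse, fell by 0.44 (SE 0.06, adjusted p = 1.0e-05).

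Adhesion genes outside the 43 and the inhibitory postsynapse held more lower than higher calls. Over all genes 15.0% were higher and 14.8% lower, with a median of -0.04. The lists were not tested, and values with the Bc1 term or with GC and length offsets are not given for their genes. Of 30 synaptic adhesion genes 6 rose and 10 fell, with a median of -0.14. Lrfn5 fell by 0.60 (SE 0.06, adjusted p = 1.9e-07), with mean levels of 51.4 ± 5.78 in 5xFAD and 34.0 ± 5.08 CPM (SD, n = 8), and Lrrc4, which encodes the netrin-G ligand NGL-2, fell by 0.53 (SE 0.06, adjusted p = 1.1e-06). Of 19 tested genes of the inhibitory postsynapse 0 rose and 9 fell, with a median of -0.25. Among them were the GABA-A receptor subunits Gabrg3 at -0.43 and Gabrb1 at -0.39 and the GABA-B receptor subunit Gabbr2 at -0.37 (adjusted p = 8.8e-05 to 5.6e-04). None of these 4 lists had a gene called in M28L against 5xFAD, where 1.21% of all genes were called.

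Markers of the cells that carry these synapses moved in both directions as well, beside 15.0% of all genes higher and 14.8% lower in P522R against 5xFAD. Their part in the results was not tested. Of 12 pan-neuronal markers 3 rose and 4 fell in P522R against 5xFAD: Nefm rose by 0.73 and Eno2 by 0.45, while Stmn2 fell by 0.42 and Nefl by 0.22. Summed over the list they ran from 9247 to 10907 CPM in 5xFAD, from 9689 to 10418 CPM in M28L and from 10296 to 11285 CPM in P522R. Of 12 excitatory neuron markers 0 rose and 4 fell (Neurod2 by 0.29, Rorb by 0.41, Fezf2 by 0.22 and Slc17a6 by 0.31). Sums over the 12 were 1741 to 2463 CPM (5xFAD), 1164 to 2265 CPM (M28L) and 1870 to 2756 CPM (P522R). Most of each sum was Slc17a7, which was not called, at median CPM values of 1394 (5xFAD), 1434 (M28L) and 1800 (P522R). Of 11 inhibitory neuron markers 2 rose and 2 fell, of 10 striatal markers 3 and 3, of 9 thalamic markers 3 and 1, and of 8 hippocampal markers 3 and 2. Striatal markers summed to 1118 to 1450 CPM (5xFAD), 1134 to 1408 CPM (M28L) and 1199 to 1555 CPM (P522R), with Drd2 rising by 0.65 and Drd1 falling by 0.30. Astrocyte markers, 4 of 11 higher and 1 lower, summed to 5114 to 6232, 4952 to 5582 and 5220 to 7584 CPM, and microglia markers, 1 of 11 higher and 2 lower, to 762 to 1659, 679 to 1340 and 769 to 1717 CPM. Of 10 oligodendrocyte markers 1 rose and 2 fell, of 7 precursor markers 2 rose, of 10 endothelial and mural markers 2 rose and of 6 choroid plexus markers 1 rose. Choroid plexus markers summed to 5 to 11 CPM in 5xFAD, 7 to 20 CPM in P522R and 7 to 270 CPM in M28L.

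Across the 43 genes the difference in P522R went with the GC content of the transcripts. The 8 genes that rose had a median GC content of 58.0% (53.8 to 65.5%), the 18 that fell 47.0% (42.5 to 61.2%) and the other 17 53.8% (40.4 to 63.2%). Pearson's r between GC content and the log2 difference was 0.61 and Spearman's rho 0.60 over the 43 genes, which share the same libraries and are not independent. Over the 21204 tested genes with a GC content these values were 0.33 and 0.36. In M28L they were -0.30 and -0.33 over the 43 genes. With offsets for GC content and length in the model, r was 0.30 and rho 0.22 over the 43 genes. Over the 21204 genes they were 0.02 and 0.01. In that fit 8 of the 43 genes were called higher and 19 lower, 23 of them among the 26, beside 32.0% of all genes. Lost were Grm3, Grm5 and Nlgn1, and added were Camk2b, Lrrtm1, Nlgn2 and Shank2, all lower. Of the 26 called genes 22 lay closer to 0 with the offsets; the exceptions were Dlgap2, Shank3, Homer2 and Grik3.

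**Figure D4:**
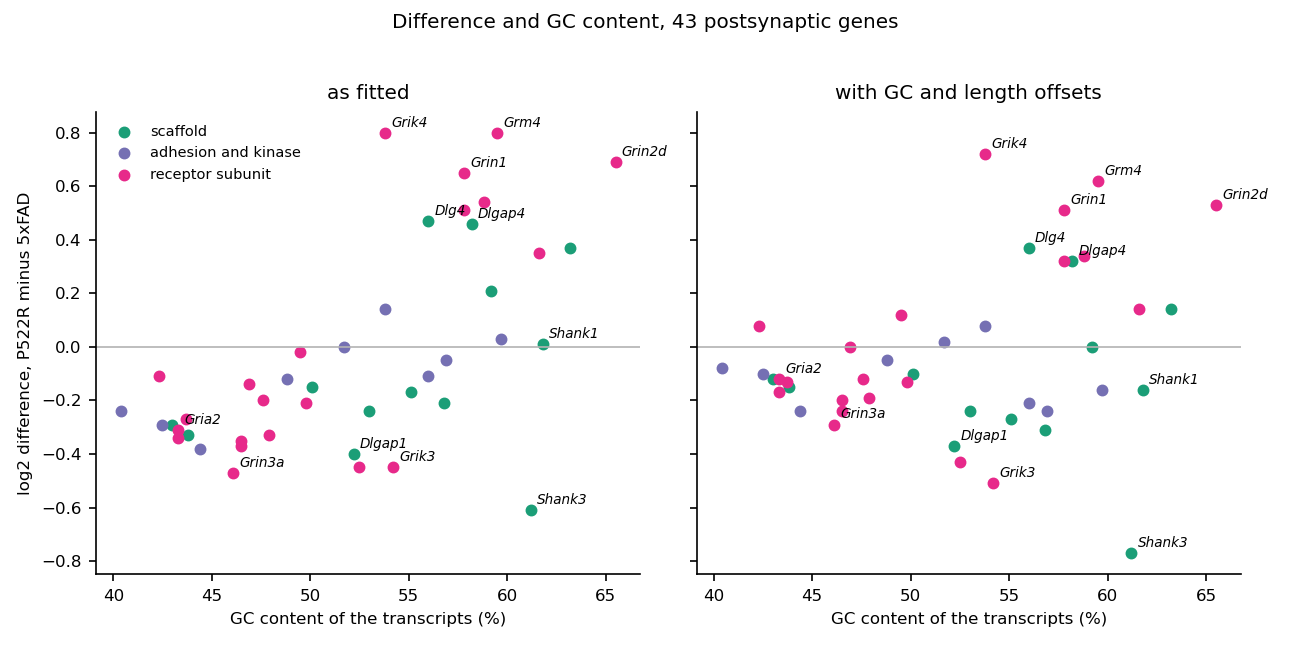
Log2 difference between P522R and 5xFAD (y axis) against the GC content of the transcripts (x axis, percent), 1 point per gene, as fitted (left) and with GC and length offsets (right); colours give the class. Points rise with GC content on the left (r 0.61) and less so on the right (r 0.30), while Shank3, at 61.2% GC, is the lowest point in both.

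The Bc1 share of the library also moved with these differences. With the log2 Bc1 share as a term of the model, 2 genes stayed called higher (Dlgap4 and Grm4) and 1 lower (Grin3a) in P522R against 5xFAD, beside 4.18% of all genes, and 24 of the 26 lay closer to 0, the exceptions being Dlgap4 and Grm4. Without the 5 libraries with over 10% Bc1, 3 genes were higher (Dlgap4, Grik4 and Grm4) and 6 lower (Dlgap1, Grik3, Grin3a, Grm7, Lrrtm4 and Shank3), beside 11.5% of all genes, and again 24 of 26 lay closer to 0, here except Shank3 and Grik3. That fit compares 4 P522R with 7 5xFAD libraries. Genotype and Bc1 share overlap in part, with P522R holding 4 of the 5 libraries over 10%, and the part of Bc1 in these results was not tested.

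**Figure D5:**
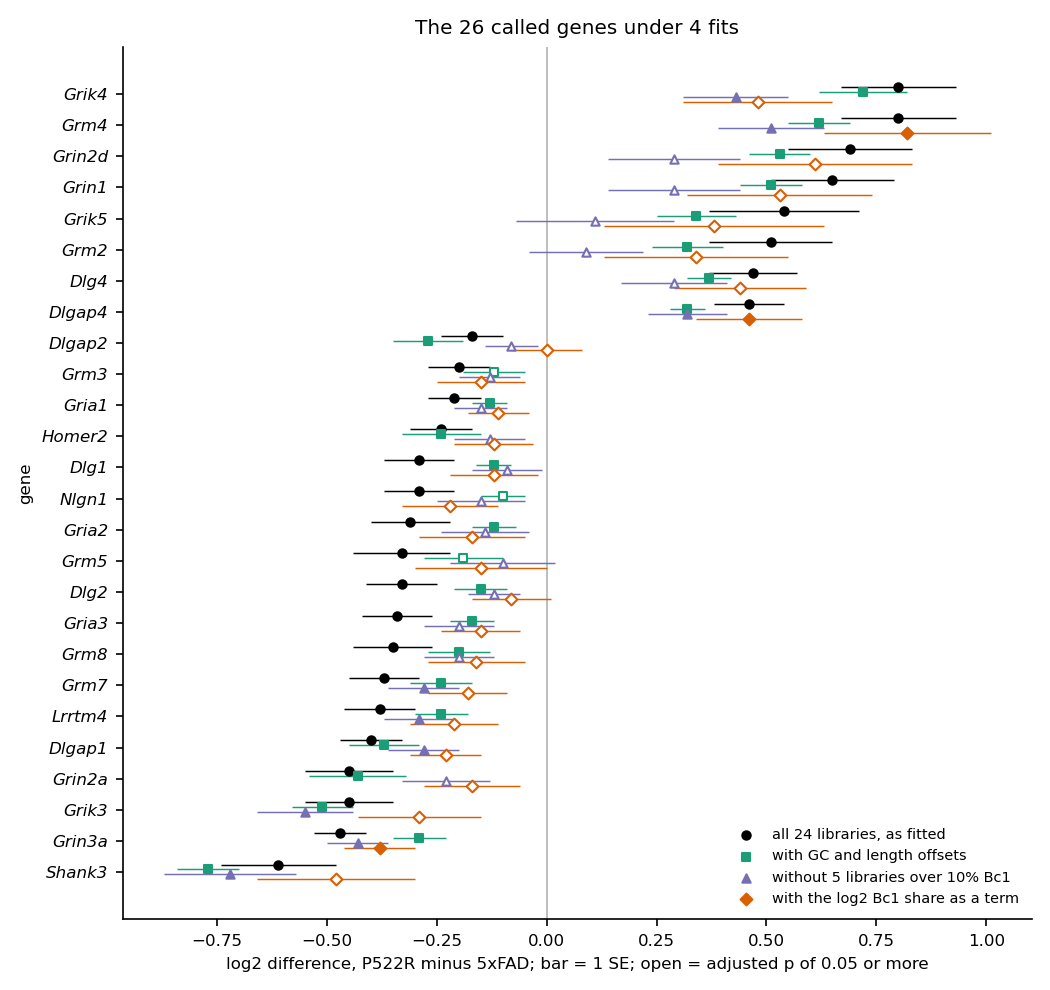
Log2 difference between P522R and 5xFAD (x axis; bar, 1 SE) of the 26 called genes (y axis) under 4 fits. Filled symbols passed an adjusted p of 0.05 and open ones did not; every symbol lies on the same side of 0 as the fit of all 24 libraries or at 0.00 (Dlgap2 with the Bc1 term), and Dlgap4, Grm4 and Grin3a are filled in all 4.

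Within the title letters the counts differed. In F libraries alone 8 genes were higher in P522R than in 5xFAD, the same 8 as in the joint fit, and 4 were lower (Grin3a, Grm8, Lrrtm4 and Nlgn1), beside 10.7% of all genes higher and 2.90% lower. In M libraries alone 6 were higher, without Grm2 and Grik5, and 11 were lower, among them Shank1, Shank2 and Dlg3, which the joint fit did not call, beside 11.7% of all genes higher and 10.2% lower. The 26 genes called in the joint fit kept their sign in both, while others did not: Shank1 lay at 0.37 in F libraries (adjusted p = 0.20) and at -0.29 in M libraries (adjusted p = 0.035), and Nlgn2 at 0.31 and -0.18. A direct test of the difference between the letters called 0 of the 43 genes in this comparison, with the smallest adjusted p, 0.26, for Shank1, and 1 gene had an unadjusted p below 0.05.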

How the data were processed

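Mouse cortex RNA was turned into libraries by KAPA mRNA HyperPrep, per the labels' protocols. Reads were aligned with STAR 2.7.2b and counted per gene with featureCounts, per the submitters' processing notes. Genome build, annotation and strand setting are not given in the sources used here. Raw values, as deposited, are counts per gene, with exon lengths and coordinates, and 0 columns had no sample. Identifiers matched GENCODE M21 symbols for 52093 of 53647 rows (97.1%), and GC content came from its transcripts.

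From these counts TMM factors and CPM were computed with edgeR 4.0.16 in R 4.3.3. A filter on low counts left 21280 genes. All 24 libraries were fitted in 1 quasi-likelihood model with genotype and title letter, with Benjamini-Hochberg adjustment over all genes tested and calls at an adjusted p below 0.05. No 2 libraries were identical among 276 pairs (smallest chi-square per degree of freedom 7.72). The members and lists were chosen with earlier results of these data known, so no test was made over a list. Group values are given for the 16 called members with the largest log2 difference in any of the 3 comparisons and for the member of highest CPM per kb in each role. Outside them, up to 4 called genes per list with the smallest p are named, with Plcg2 and Bc1; some such genes are not reported here.

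The model was tested on simulated data with 200 genes changed. Counts were drawn independently for each gene, and apart from those changes the libraries differed only in size and scaling. The shares below therefore do not cover differences that go with Bc1 share, GC content, title letter or prefix. For P522R against 5xFAD (20983 genes) the model recovered 74% of changes of 0.5 and 98% of changes of 1 on the log2 scale, with 3.37% of calls false. For M28L against 5xFAD (20990 genes) these shares were 66%, 99% and 5.17%, and for P522R against M28L (20980 genes) 75%, 100% and 3.85%. Alternatives used DESeq2 1.42.0, limma 3.58.1 (voom), sva 3.50.0, other scalings, filters and terms, offsets for GC content and length, subsets of libraries, and each library left out in turn. Tables were handled in Python 3.11.15.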

Additional observations from a re-analysis of the deposited data

Results flagged for a closer look

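In M28L the library named replicate 28 stood apart from the other 7 at the low end for 7 of the 43 genes. For Dlg4 it held 553 CPM, with the next library at 787 CPM, and for Dlgap3 96.9 CPM, with the next at 185 CPM. For Nlgn2 it held 96.5 CPM against 174 CPM in the next library, and for Camk2b 596 against 808 CPM. Among receptor genes it held 12.5 CPM of Grm4 (next 20.8), 14.9 CPM of Grik4 (next 21.5) and 72.2 CPM of Grik5 (next 129). On the scale of log2(CPM + 0.5) the gap to the next library was 0.529 to 0.652 of the whole range of the group, above Dixon's critical value of 0.526 for 8 samples. On CPM itself it was 0.542 for Dlg4, 0.565 for Grm4 and 0.55 for Grik4, and 0.43 to 0.459 for the other 4 genes, below that value. In all, 129 sets of 8 values were checked, and chance alone marks about 5% of such sets. The 7 genes share this library and are not independent.

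Shank1 differed between the title letters in P522R against M28L. The log2 difference was 0.47 (SE 0.18, adjusted p = 0.065) in F libraries and -0.32 (SE 0.09, adjusted p = 0.020) in M libraries. A direct test of M minus F gave -0.73 (edgeR's quasi-likelihood test, adjusted p = 0.046). That test called 1164 of all 21280 genes, and of the 43 genes described here it called 1, Shank1. Replicate 28 is 1 of the 4 F libraries of M28L, and its part in this was not tested.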

How the results depend on the processing

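In P522R against 5xFAD, 8 of the 43 genes were higher and 18 lower. With the log2 Bc1 share as a term these counts were 2 and 1, under the block for the title prefix 2 and 2, and without libraries over 10% Bc1 3 and 6. Lower genes numbered 11 without the letter term, 4 from F libraries alone and 11 from only the M libraries. In P522R against M28L the 9 higher and 24 lower genes became 0 and 0 with the Bc1 term, 3 and 5 with the prefix block, and 3 and 12 without libraries over 10% Bc1, with 14 lower in F libraries alone. In M28L against 5xFAD limma-voom called 4 higher and 1 lower, and each other alternative called 0. Leaving out 1 library gave 8 to 10 higher and 15 to 21 lower in P522R against 5xFAD, 8 to 12 and 23 to 26 against M28L, and 0 and 0 in M28L. Single genes gave 2360 values under the alternatives: 2094 kept direction and side of the threshold, 262 kept direction and lost the call, and 4 turned direction. These were, in P522R against M28L, Dlg2 at 0.01, Grin2a at 0.06 and Grik1 at 0.01 with the Bc1 term and Nlgn1 at 0.00 with GC and length offsets. The cause was not tested.

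Over all genes, 258 were called in M28L against 5xFAD, and 540 by DESeq2, 1937 by limma-voom, 49 without the letter term, 72 with the Bc1 term, 101 with the prefix block, 498 with GC and length offsets, 102 and 5 in F and M libraries alone, and 707 with only the genotypes compared. In P522R against 5xFAD the 6344 genes became 889 with the Bc1 term, 936 with the prefix block, 2563 without libraries over 10% Bc1 and 2927 in F libraries alone. Against M28L the 7405 became 20, 1259 and 2959 under the first 3 of these. The share of calls that were higher, 50.4% in P522R against 5xFAD, was 63.3% with the Bc1 term and 78.7% in F libraries alone. Against M28L 47.5% became 90.0% and 59.4%. In M28L 41.5% became 30.1% with upper-quartile factors, 29.2% with the Bc1 term, 9.9% with the prefix block, 57.0% with limma-voom and 0% in M libraries alone. The animal numbers in the titles are not shared between genotypes, so libraries were not paired by animal. Some title prefixes recur across genotypes, and the prefix block above gives the fit that matches them. Libraries whose prefix does not recur add nothing to that fit, which lowers its power. The labels do not say what a prefix marks. The lowest count of any of the 43 genes was 501, and the effect of depth was not tested.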

Other observations

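Values within the title letters show where the 43 genes were less even than the joint fit gives them. Dlgap3, the SAPAP gene of highest level, lay at 0.72 in F and 0.07 in M libraries in P522R against 5xFAD, with neither passing (adjusted p = 0.055 and 0.79). Grm4 rose by 1.10 in F and 0.58 in M libraries, Grin2d by 1.0 and 0.46, and Grik4 by 0.97 and 0.70. Shank3 lay at -0.33 in F libraries (adjusted p = 0.23) and fell by 0.83 in M libraries (adjusted p = 1.1e-04). The test of the difference between letters called 0 of 21280 genes in P522R against 5xFAD by edgeR's quasi-likelihood test.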
